A study of Mus musculus with 11 samples.

Results

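Plasma cells of the aged mouse lung are described here, as found by sequencing the RNA 3′ ends of single cells from dissociated lung in droplets (10x Genomics). A plasma cell was a cell barcode with 1000 to 30000 UMIs (unique molecular identifiers, counts of captured RNA molecules) and at most 14% of them mitochondrial. It also had to hold 20 or more Jchain UMIs, 3 or more UMIs of Derl3 and Tnfrsf17 together, and 0 UMIs of the T cell gene Cd3e. The members were thus chosen by their own RNA, and the values of those 4 genes are a description. Of 81983 barcodes, 69267 passed the limits on UMIs and mitochondrial share, and 434 of those (0.627%) met the rule. The 11 libraries were 1 of wild-type mice (WT, p21 +/+), 3 of p21 heterozygotes (p21Het, +/-), 5 of p21mTert mice (+/mTert) and 2 of p21mTertCD mice (+/mTertCD). The labels do not spell out the mTertCD allele. By their age labels all mice were 18 months old except those of p21Het_1 at 19 and p21mTert_1 at 20 months. The titles of those libraries give 18 months instead. Either way no young lung enters. The p21 gene is Cdkn1a, and all groups but WT keep 1 normal copy of it. By the title of the series mTert is induced in cells positive for p21. A library's name gives its group and then its replicate, as in p21Het_2. Nothing in the labels says that libraries of a group came from separate animals, so p-values measure the spread between these libraries, which may be technical.

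Plasma cells are the antibody-secreting end stage of B cell differentiation. Blimp-1 (Prdm1) and Irf4 close the B cell programme, and Xbp1 widens the endoplasmic reticulum (ER) so that immunoglobulin can be translocated, folded and exported in bulk. The J chain joins IgA into dimers and IgM into pentamers, and these polymers are carried across mucosal epithelium. In the airway mucosa IgA plasma cells are known for lodging near epithelium through chemokine receptors such as Ccr10, and plasma cells also persist in the lung after infection.

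Many ER folding genes are induced through the ER stress response element, a promoter motif bound by ATF6 with NF-Y, and by XBP1. The motif searched was CCAAT and CCACG with any 9 bases between them, on both strands and within 250 bases upstream of each RefSeq start site (GRCm38.p6), for genes of the lists described below. It occurred in 8 of the 24 genes of the unfolded protein response list that had a promoter sequence (33.3%). Over all 27025 genes with a promoter it occurred in 35 (0.130%). None of the 15 plasma identity genes, the 23 ER translocation genes or the 14 B cell genes with a promoter held it, while Derl3, an ER degradation factor and one of the genes the cells were chosen by, did. The 6 stretches shown are examples, from ER genes whose levels in the plasma cells are given further on. Each is printed along its gene's strand, with the motif or its reverse complement in capitals.
Hspa5: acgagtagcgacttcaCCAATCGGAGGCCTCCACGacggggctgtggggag
Hsp90b1: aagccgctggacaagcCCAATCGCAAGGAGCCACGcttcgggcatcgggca
Dnajc3: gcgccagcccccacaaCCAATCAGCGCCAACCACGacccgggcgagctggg
Pdia6: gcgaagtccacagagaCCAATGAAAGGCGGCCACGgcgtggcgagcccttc
Creld2: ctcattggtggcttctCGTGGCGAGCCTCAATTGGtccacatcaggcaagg
Derl3: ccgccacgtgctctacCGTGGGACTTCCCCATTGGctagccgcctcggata
The Hspa5 stretch is chr2:34772009-34772059 (plus strand), and that of Hsp90b1 is chr10:86705622-86705672 (minus strand). Dnajc3 lies at chr14:118937811-118937861, Pdia6 at chr12:17266475-17266525, Creld2 at chr15:88819504-88819554 and Derl3 at chr10:75893226-75893276, all on the plus strand. Hsp90b1 held a further match at chr10:86705517-86705567, which is not shown. Calr, Canx and Syvn1 were the other list genes with the motif. The related motif, ATTGG and CCACG with any 1 base between them, was found upstream of Herpud1 alone among the list genes, and in 10 genes of all 27025. Another motif, the XBP1 core of TGACG followed directly by TGG, was found upstream of the plasma identity genes Pou2af1 and Txndc5 (2 of 15, 13.3%), of 0 of the 24 unfolded protein response genes and of 163 genes of all 27025 (0.603%). Its reverse complement begins with CCACG, so it can overlap the other motifs. A match describes letters in the window and is no evidence of binding.

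Libraries held 42038434 to 85988955 UMIs. An earlier deposit held WT_1, p21Het_1 and p21mTert_1, and a later deposit the remaining 8. The p21mTertCD_1 library stood apart in its lymphocytes, with 85 B cells (Ms4a1 and Cd79a of 2 or more UMIs each) against 692 to 1714 in the other libraries. As doublets, the cells of highest score by the caller Scrublet were marked in each library, up to an assumed rate of 0.8% per 1000 barcodes. Scrublet's own threshold marked fewer, such as 45 instead of 215 passing cells in p21mTert_5. The assumed rate marked 17 plasma cells, of which 11 were among the 12 of p21mTert_5. That leaves p21mTert_5 1 plasma cell and no class sum once marked cells are left out. Calls that ended without marked cells are named beside the genes. Counted within each library, 1482 passing cells had a barcode that also occurred in another library, and 6 plasma cells did, but 0 of these were a plasma cell in both. Plasma cells had median totals of 19206 to 26020 UMIs by library, and B cells 3617 to 6306.

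The label held against markers that the rule did not use. Plasma cells held more UMIs than B cells, so the detection shares compare cells of unlike depth. Xbp1 had a UMI in 432 of the 434 cells (99.5%), against 24.5% of the 11312 B cells. Prdm1 was found in 81.6% of plasma cells and 2.56% of B cells, Irf4 in 85.0% and 33.9%, and Sdc1, the surface marker CD138, in 85.7% and 2.91%. Siglech, which marks plasmacytoid dendritic cells, had a UMI in 1 plasma cell. The T cell gene Cd3d had one in 8, among cells already chosen for 0 UMIs of Cd3e. The B cell gene Ms4a1 had a UMI in 131 plasma cells (30.2%, 8.33% to 61.5% by library), with a median of 0 UMIs against 4 in B cells, which were chosen by it. The macrophage gene Lyz2 had one in 72.4% of plasma cells and 55.9% of B cells. The airway product Scgb1a1 (99.5% of plasma cells, 99.1% of B cells) and the surfactant gene Sftpc (96.5% and 89.2%) were detected in nearly all cells of both types, and such shares are background. Just inside the Jchain limit, 7 cells held 20 to 29 UMIs, while 400 held 100 or more, and just outside it 3 cells held 10 to 19. More barcodes lay outside the other limit: 230 had the Jchain UMIs but 0 to 2 UMIs of Derl3 and Tnfrsf17, with a median total of 7429 UMIs and 53.0% immunoglobulin. The upper limit of UMIs also acted on these cells: 280 barcodes met all conditions but held over 30000 UMIs, 39.2% of the 714 found without that limit.

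Plasma cells made up between 0.209% and 1.40% of passing cells, and no difference between genotypes passed an exact permutation test over libraries. The WT library had 0.238% (13 cells, exact 95% Clopper-Pearson interval 0.127% to 0.407%, counting error only). The p21Het libraries had 0.209%, 1.40% and 0.256%, the p21mTert libraries 0.450%, 0.372%, 1.33%, 0.399% and 0.254%, and the p21mTertCD libraries 0.869% and 0.715%. Without cells marked as doublets the value of p21mTert_5 was 0.0222%. The high values were those of p21Het_2 and p21mTert_3, each several times the others of its group. The groups overlapped, and both p21mTertCD values lay inside the ranges of the other groups. Group means were 0.620% ± 0.672 (SD, n = 3) for p21Het, 0.561% ± 0.436 (SD, n = 5) for p21mTert and 0.792% ± 0.109 (SD, n = 2) for p21mTertCD. The difference p21mTert minus p21Het was -0.0589 percentage points (exact permutation test, two-sided, p = 0.929), p21mTert minus p21mTertCD -0.231 (exact permutation p = 0.619) and p21mTertCD minus p21Het 0.172 (exact permutation p = 1). All 12 share tests, those of the antibody classes included, had an adjusted p of 1. The smallest p these designs allow is 0.0179, 0.0476 and 0.1, so the last cannot reach 0.05. Even with every test at its smallest p, no adjusted p over the 12 tests could fall under 0.05. The adjusted values were thus bound to miss the threshold and decide nothing. Without p21mTert_3 the p21mTert values, then at most 0.450%, all lay below both p21mTertCD values, a difference of -0.423 points (exact permutation p = 0.0667, the smallest that design allows).

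**Figure D1:**
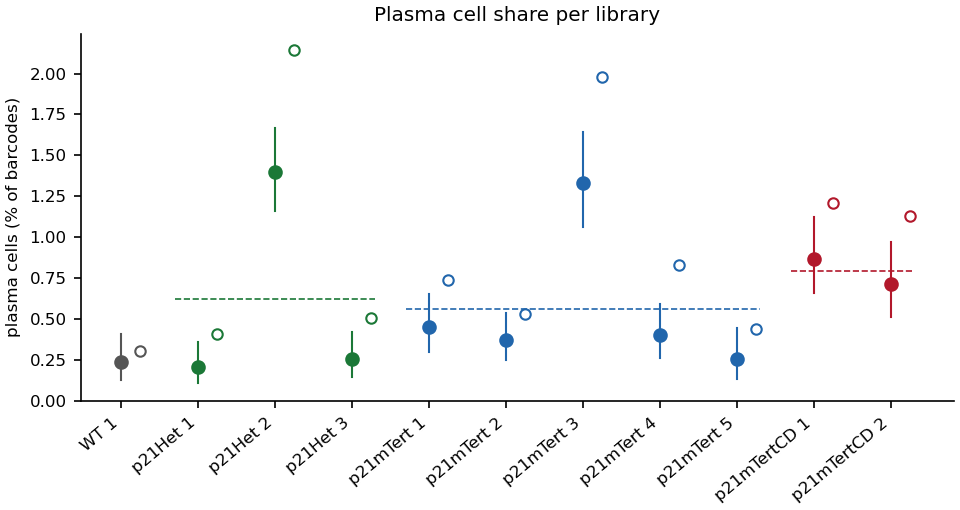
Plasma cells as a percentage of passing cells (vertical axis) in each of the 11 libraries, grouped by genotype, with exact 95% binomial intervals and group means as lines. Among the filled points, p21Het_2 at 1.40% and p21mTert_3 at 1.33% stand above the other libraries, which lie at 0.869% or lower. Open points give the share with no upper UMI limit.

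Every plasma cell could be given a heavy chain class. A class was assigned where 10 or more heavy chain constant UMIs were present and 1 class held 70% or more of them. IgM was the most frequent class with 284 cells (65.4%), followed by IgA with 92 (21.2%) and IgG with 58 (13.4%). The IgG cells were mostly Ighg2c (38 cells) and Ighg2b (15 cells), with 4 of Ighg1 and 1 of Ighg3, and no cell was assigned IgD or IgE. Light chains were kappa in all but 10 cells (2.30% lambda). Median immunoglobulin shares of a cell's UMIs were 55.9% in IgM, 48.8% in IgA and 59.9% in IgG cells. These medians pool cells of libraries that differ in class mix, so class and library are mixed in them. Jchain, which the rule used, took 2.70%, 4.02% and 1.61%. Median totals within the limit of 30000 were 22020.5 UMIs in IgM, 21470 in IgA and 22957 in IgG cells. The class loci lie together on chr12 (GRCm38, GENCODE M21), with Ighm at chr12:113418558-113422730, Ighg2c at chr12:113285325-113288932 and Igha at chr12:113254830-113260236, all on the minus strand. Without the upper UMI limit the counts were 410 IgM, 173 IgA and 131 IgG, since 30.7% of IgM, 46.8% of IgA and 55.7% of IgG cells lay over it. Median totals were then 25760.5, 28345 and 30958 UMIs, and median immunoglobulin shares 56.8%, 55.7% and 60.97%. The limit on Derl3 and Tnfrsf17 bore on the classes too. The 230 barcodes left out by it alone held 125 IgM, 26 IgA and 77 IgG cells, and 2 without a class. IgG thus outnumbered IgA there, against the order within the rule. The 3 barcodes with 10 to 19 Jchain UMIs were all IgG. Class shares here and below hold for cells within the rule.

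**Figure D2:**
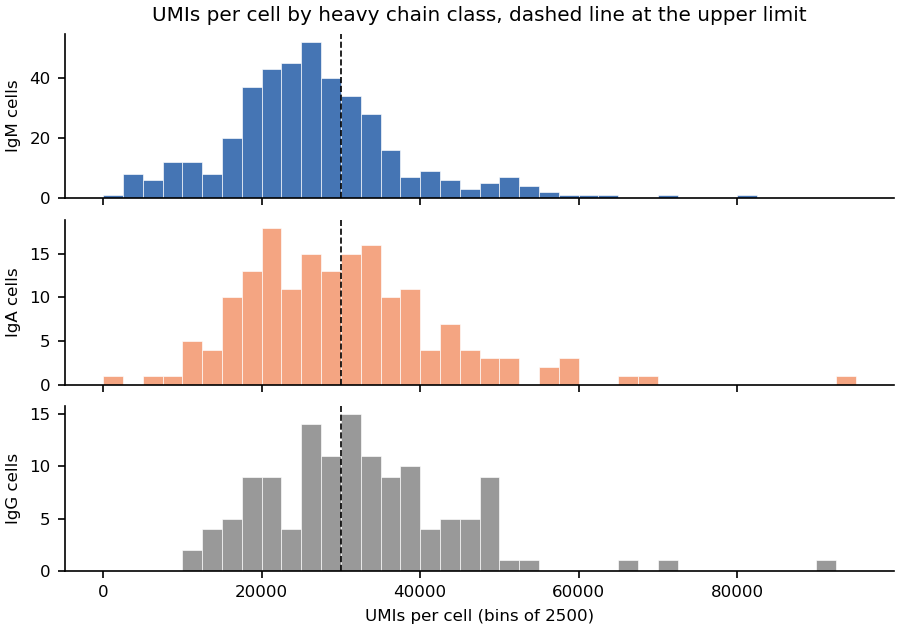
Number of cells (vertical axis) by total UMIs per cell (horizontal axis) for IgM, IgA and IgG plasma cells, with the limit of 30000 UMIs as a line. Cells beyond the line met all other conditions and made up 55.7% of the IgG cells found without it.

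The mix of classes differed widely from library to library within a genotype. WT_1 held 13 IgM cells and none of another class. In p21Het, IgM, IgA and IgG cells numbered 5, 7 and 1 in replicate 1, then 62, 25 and 32 in replicate 2 and 12, 3 and 0 in replicate 3. In p21mTert they numbered 13, 3 and 12 in replicate 1, 16, 10 and 2 in replicate 2, 64, 15 and 5 in replicate 3, 16, 9 and 0 in replicate 4, and 5, 7 and 0 in replicate 5. In p21mTertCD they numbered 39, 13 and 5 in replicate 1 and 39, 0 and 1 in replicate 2. Most IgG cells (32 of 58) came from p21Het_2 and 12 from p21mTert_1, while p21mTertCD_2 had 0 IgA cells of 40.

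The IgA share was 31.6% ± 19.3 (SD, n = 3) on average for p21Het, 31.7% ± 18.5 (SD, n = 5) for p21mTert, and only 11.4% ± 16.1 (SD, n = 2) for p21mTertCD. IgM shares were 56.9% ± 21.2 in p21Het, 57.1% ± 13.8 in p21mTert and 83.0% ± 20.6 in p21mTertCD, with the same numbers of libraries. The IgM share was 25.9 percentage points lower in p21mTert than in p21mTertCD, which was the contrast with the lowest p (exact permutation test, difference -25.9, p = 0.143), and the IgA share 20.3 points higher (exact permutation p = 0.286). Between p21mTert and p21Het the class shares differed by 0.106 points for IgA, 0.232 for IgM and -0.337 for IgG (exact permutation p = 1, 1 and 0.946). None of these differences passed the exact permutation test at p under 0.05. The IgM and IgA differences between p21mTert and p21mTertCD were still larger than the SD of either group, with n = 2 in p21mTertCD. Without p21mTert_3 the IgM share was 30.7 points lower in p21mTert than in p21mTertCD with no overlap (difference -30.7, exact permutation p = 0.0667, the smallest that design allows).

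**Figure D3:**
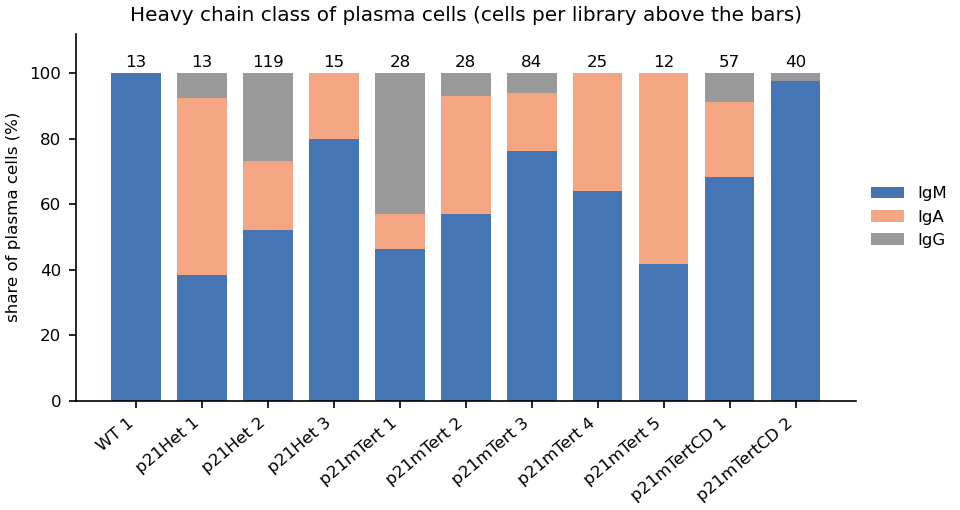
Share of plasma cells of class IgM, IgA and IgG (vertical axis, percent) as stacked bars for each library, with the number of plasma cells over each bar. IgM is the largest class in most libraries, IgG reaches 42.9% in p21mTert_1, and p21mTertCD_2 holds no IgA cell.

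The secretory programme was set far above the level of B cells, in every library. These values describe cells chosen by their RNA, so they carry no test. Levels are UMIs per 1000000 UMIs outside immunoglobulin genes and Jchain (CPM), summed over the cells of a library. Among all 11609 genes compared, 758 (6.53%) were higher in plasma cells with no overlap of library values, and 1019 (8.78%) were lower. The rule used this contrast, so nothing is read from those shares. Of 19 plasma identity genes found in the files, 16 were higher without overlap, with a median ratio of 16.6, as were 23 of 28 unfolded protein response genes (median ratio 8.38) and 28 of 31 genes of ER translocation and signal peptidase (median ratio 5.37). Of the remaining plasma identity genes, Cd38, an ectoenzyme used as a marker of human plasma cells, was lower without overlap (7.19 to 52.2 against 65.2 to 166 CPM in B cells), and Zbtb20 and Cd93 overlapped. Of 22 B cell programme genes 18 were lower without overlap. That list includes Ms4a1 and Cd79a, by which the B cells were chosen, so the values of those genes are a description.

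Xbp1, the transcription factor of the secretory ER, had a lowest library level of 1266 CPM, a median of 1926 and a highest of 2367 in plasma cells, against 63.7 to 96.0 CPM in B cells. The other transcription factors Prdm1 (114 to 409 CPM) and Irf4 (344 to 842 CPM) were likewise above their B cell ranges of 3.82 to 20.1 and 86.0 to 141 CPM. Mzb1, an ER co-chaperone of immunoglobulin, ranged from 4445 to 7352 CPM, Txndc5, a protein disulfide isomerase, from 1631 to 3330, and Trp53inp1 from 1234 to 2674. Fam46c, a poly(A) polymerase, ranged from 563 to 986 CPM. Prg2, known as the eosinophil major basic protein, was at 320 to 1443 CPM in plasma cells and at most 2.92 CPM in B cells. The rule genes Derl3 and Tnfrsf17, the latter encoding the survival receptor BCMA, had means of 644 and 328 CPM against 3.16 and 0.246 CPM in B cells.

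Among the ER genes, the chaperone Hsp90b1 had library levels of 4319 to 8942 CPM in plasma cells and 262 to 668 CPM in B cells. Hspa5, the ER chaperone BiP, ranged from 1942 to 3629 CPM against 330 to 555 CPM. The retrotranslocation factor Herpud1 (1194 to 4192 CPM), the lectin chaperone Calr (1647 to 3325), the secreted ER factor Manf (1250 to 3242) and the disulfide isomerase Pdia4 (877 to 1690) lay above their B cell values as well. The motif genes Dnajc3, Pdia6 and Creld2 had means of 892, 1009 and 881 CPM against 73.8, 118 and 25.5 CPM. The 5 genes of this list that overlapped with B cells were the sensor kinases Ern1 and Eif2ak3 and the stress genes Atf4, Ddit3 and Ppp1r15a. Of the translocation genes, Ssr4 ranged from 2242 to 4079 CPM, the signal peptidase subunit Sec11c from 2197 to 2934, Sec61b from 1641 to 2396 and Sec61g from 1238 to 2208.

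**Figure D4:**
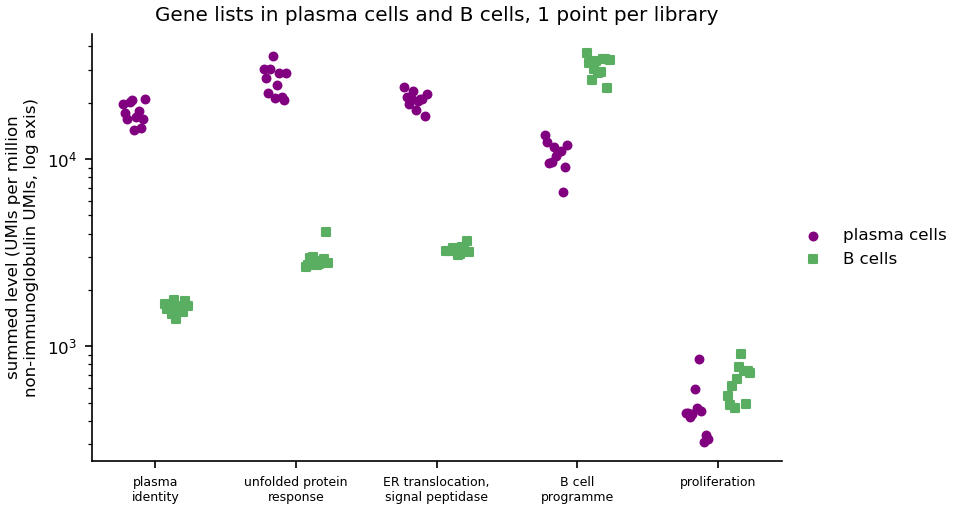
Summed level of the genes of each list in CPM (vertical axis, log scale) for plasma cells and B cells, 1 point per library. The plasma identity, unfolded protein response and ER translocation lists do not overlap between the cell types, and the B cell programme is lower in plasma cells.

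The B cell genes were reduced to different degrees. Pax5, which holds B cell identity, had a median of 0 CPM in plasma cells and a highest value of 32.8, against 210 to 425 CPM in B cells. Ciita, the class II transactivator, had at most 14.3 CPM against 108 to 245. Cd79a, a subunit of the B cell receptor, kept 762 to 1289 CPM against 1714 to 2428 CPM in B cells, which were chosen by it. Cd79b overlapped with the B cell values. Of the homing list 15 of 22 genes overlapped with B cells. The lymph node entry receptor Ccr7 (mean 9.22 against 525 CPM), the egress receptor S1pr1 (26.4 against 210) and the receptors Cxcr5 and Ccr6 were lower without overlap. Selplg and Epcam were higher. Of the survival list 13 of 15 genes overlapped, with a median ratio of 1.19. Cd28, a costimulatory receptor known to support plasma cell survival, was at 50.3 to 178 CPM against at most 3.92 CPM. The proliferation list overlapped in 17 of its 18 genes, and Hmgb2 was the 1 that was lower. Over all 11609 genes compared, only 6.53% were higher and 8.78% lower without overlap, so most genes overlapped. The overlap counts of the homing, survival and proliferation lists are therefore not read as traits of those lists. Mki67 had a UMI in 107 plasma cells (24.7%), and its level of 35.7 to 171 CPM overlapped with 4.18 to 81.7 CPM in B cells.

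Plasma cells of different antibody classes were compared with each other within libraries. UMIs were summed per library and class where 5 or more cells were present, which gave 19 sums from 8 libraries, and were tested by the quasi-likelihood test of edgeR with a term for library. IgA cells differed from IgM cells in 251 of 2650 genes tested at an adjusted p under 0.05, of which 114 (4.3% of those tested) were higher and 137 (5.17%) lower in IgA, over 7 libraries that held both. IgG differed from IgM in 8 genes, 2 higher (0.0755%) and 6 lower (0.226%), over 4 libraries. IgA differed from IgG in 46 genes, 22 higher (0.83%) and 24 lower (0.906%), over 3 libraries. Fewer sums entered the IgG contrasts, so these counts are not compared. Genes named below were called in this fit at an adjusted p under 0.05 unless stated. Many of these calls lay near the threshold: of 58 named differences, 39 stayed called without marked doublets, 43 with no upper UMI limit and 20 with sums of 10 or more cells. Those 58 include Jchain and Tnfrsf17, whose values are a description because the rule used them.

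Ccr10, the receptor for the mucosal chemokines CCL27 and CCL28, had the highest fold in IgA over IgM cells among called genes with a mean of 50 CPM or more and 1 sign in all 7 libraries (chr11:101172997-101175443, minus strand). Its levels in IgA sums were 210 and 367 CPM in p21Het_1 and p21Het_2, 174, 277, 180 and 124 CPM in p21mTert_2 to p21mTert_5, and 82.3 CPM in p21mTertCD_1. In IgM sums it lay between 0 and 41.5 CPM, so that classes did not overlap. The difference was 11.7-fold (log2 3.54, SE 0.47, edgeR adjusted p = 0.000659), higher in 7 of 7 libraries. A Ccr10 UMI was found in 65 of 92 IgA cells (70.7%), 25 of 284 IgM cells (8.80%) and 5 of 58 IgG cells (8.62%), and in 0.0354% of B cells. Against IgG cells it was 32.5-fold higher in IgA (log2 5.02, edgeR adjusted p = 0.0174), a call that ended without p21Het_2 (0.102), without p21mTert_3 (0.0501) and with sums of 10 or more cells (0.114). With no upper UMI limit that log2 difference was 3.58.

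Other homing genes differed as well. Of 13 homing and adhesion genes tested, 5 rose in IgA cells relative to IgM and 2 fell, beside 4.3% higher and 5.17% lower over all 2650 genes, with a median log2 difference of 0.00 over the list and 0.01 over all genes. Itga4 (2.51-fold, 283 to 1729 against 114 to 463 CPM) and Itgb7 (2.89-fold, 49.4 to 504 against 0 to 103 CPM) encode the chains of the integrin α4β7, which is known for homing to mucosa. Itga4 was higher in 7 of 7 libraries and Itgb7 in 6. Klf2, a transcription factor of lymphocyte traffic, was 3.50-fold higher, with 634 to 2404 CPM in IgA and 181 to 683 CPM in IgM sums. Epcam was 2.07-fold higher. Cxcr4, which retains plasma cells in bone marrow, was 2.97-fold lower, with a median of 37.3 CPM in IgA (19.3 to 57.0) and of 108 CPM in IgM (59.2 to 157), and the groups did not overlap. Cd9 was 2.37-fold lower. Itgb7, Klf2 and Cd9 lost their calls without marked doublets (edgeR adjusted p = 0.0693, 0.0741 and 0.0628), and these 3 and Epcam without p21mTert_3 (edgeR adjusted p = 0.0890, 0.0526, 0.0648 and 0.0514). Itgb7 also lost its call without p21mTert_4 (0.0669) or p21mTert_5 (0.0564), and Cd9 without p21mTert_4 (0.0595) or p21Het_2 (0.0569).

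Outside the lists, Vpreb3, a gene of early B cells, was 8.98-fold higher in IgA than in IgM cells (64.3 to 309 against 0 to 59.7 CPM). It had a UMI in 68.5% of IgA, 10.9% of IgM and 29.3% of IgG cells, and in 44.7% of B cells. Pycard, the inflammasome adaptor ASC, was 5.79-fold higher (412 to 3373 against 118 to 373 CPM). A Pycard UMI was found in 81.5% of IgA, 69.0% of IgM and 86.2% of IgG cells, and 1 IgA cell held 153 of the 1895 IgA UMIs. Its highest library value was that of p21mTert_5, and without marked doublets, where that sum drops out, the log2 difference was 2.23 (edgeR adjusted p = 0.00376). The cytoskeletal and membrane genes Anxa2 (8.19-fold), Crip1 (5.99-fold), Ripor2 (5.20-fold), Osbpl3 (5.11-fold) and the sodium pump subunit Atp1b1 (6.45-fold) rose in 7 of 7 libraries. Crip1 had a UMI in 84.8% of IgA and 79.9% of IgM cells, with 694 of 4356 IgA UMIs in 1 cell, and Anxa2 in 40.2% and 11.6%. Osbpl3 lost its call without marked doublets (edgeR adjusted p = 0.0586) or p21mTert_3 (0.0716). Of 10 survival genes tested, Cd48 (2.08-fold) and Cd44 (1.70-fold) rose and the inhibitory Fc receptor Fcgr2b fell (3.61-fold), beside 4.3% higher and 5.17% lower over all genes. The call of Cd44 held in 6 of 16 alternatives only. It ended without marked doublets (edgeR adjusted p = 0.0961), with a class limit of 90% (0.0726), and without p21Het_1 or any 1 of the p21mTert libraries (0.0531 to 0.128). Fcgr2b lost its call without p21Het_2, p21mTert_2 or p21mTert_3 (edgeR adjusted p = 0.0509 to 0.0639), and Cd48 with no upper UMI limit (log2 0.55, 0.274) and with sums of 10 or more cells (0.0916).

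Lag3 and Il10 were higher in IgM than in IgA cells. Lag3, an inhibitory receptor known on regulatory plasma cells, had 48.8 to 284 CPM in IgM sums (median 81.0) and 0 to 19.0 CPM in IgA sums (median 4.42). The difference was 13.4-fold (log2 IgA minus IgM -3.74, SE 0.53, edgeR adjusted p = 0.00086), lower in IgA in 7 of 7 libraries. Lag3 had a UMI in 106 of 284 IgM cells (37.3%), in 5 of 92 IgA and 5 of 58 IgG cells, and in 0.477% of B cells. Against IgG cells the difference of Lag3 was not called (log2 IgG minus IgM -2.72, SE 0.65, edgeR adjusted p = 0.107). Il10, the anti-inflammatory cytokine, had 711 and 154 CPM in the IgM sums of p21Het_1 and p21Het_2, 290, 63.5, 72.7, 59.7 and 29.6 CPM in those of p21mTert_1 to p21mTert_5 and 195 CPM in p21mTertCD_1. In IgA sums it had 247 CPM in p21Het_1, 4.42 in p21Het_2, 8.23 in p21mTertCD_1 and 0 in the 4 p21mTert libraries, so the classes overlapped through p21Het_1. It was 9.85-fold lower in IgA (log2 -3.30, SE 0.46, edgeR adjusted p = 0.00086) and also lower in IgG than in IgM (log2 -4.75, SE 0.71, edgeR adjusted p = 0.00747). The call against IgG ended without p21Het_2 (edgeR adjusted p = 0.0794) or p21mTert_1 (0.0547). A UMI of Il10 was found in 72 IgM cells (25.4%, in 11 libraries), 4 IgA cells and 4 IgG cells, and 1 cell held 57 of the 356 IgM UMIs. Likewise 1 IgA cell held 17 of the 22 IgA UMIs. Over the 16 alternatives the log2 difference IgA minus IgM ran from -5.23 to -2.97.

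**Figure D5:**
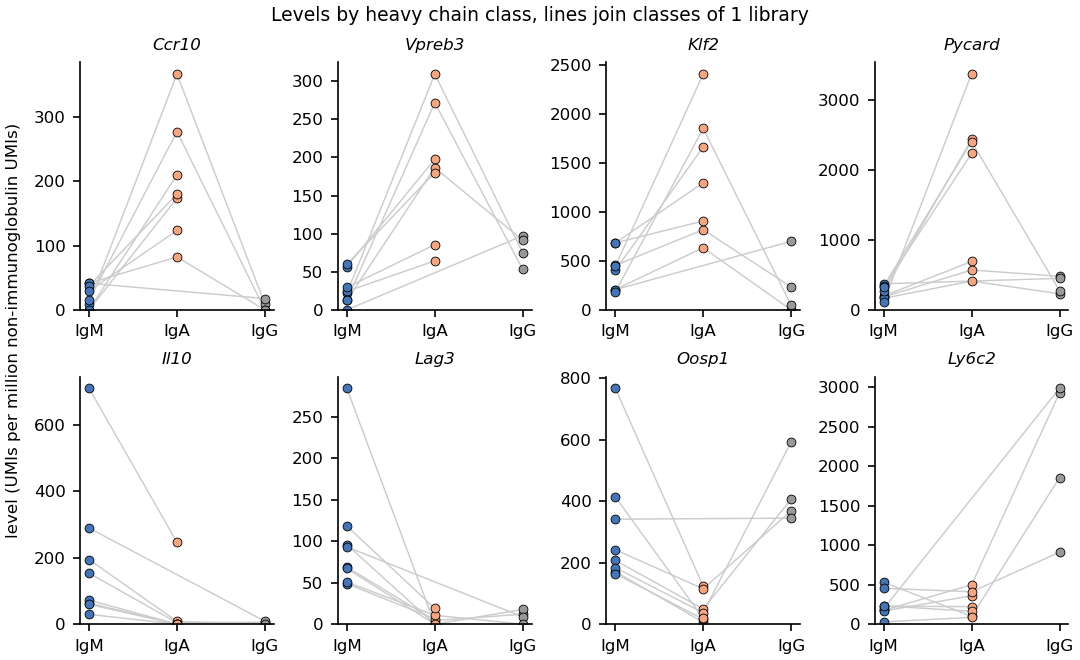
Levels of class-related genes in CPM (vertical axes) in the sums of IgM, IgA and IgG plasma cells, 1 point per library and class with 5 or more cells. Ccr10 is high in the IgA sums, Il10 and Lag3 in the IgM sums and Ly6c2 in the IgG sums, and grey lines join classes of 1 library.

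Further genes lower in IgA than in IgM cells were Oosp1 (5.44-fold), Rab30 (5.25-fold), Ggh (5.17-fold), Clec2g (4.98-fold), Gpr18 (4.50-fold) and the phosphatase Ptpre (4.31-fold), each in 7 of 7 libraries. Ggh lost its call without p21Het_2 (edgeR adjusted p = 0.0569), and Gpr18 without p21mTert_2 (0.0556) or p21mTert_3 (0.0514). Of 26 unfolded protein response genes tested 3 fell and 0 rose: Herpud1 (2.59-fold), Ddit3 (2.53-fold) and Dnajb9 (1.95-fold), with a median log2 difference of 0.03 over the list. Ddit3 lost its call without p21mTert_2 or p21mTert_3 (edgeR adjusted p = 0.0583 and 0.0660), and Herpud1 with no upper UMI limit (log2 -0.85, 0.265) and with sums of 10 or more cells (-0.94, 0.117). Of 17 plasma identity genes Sdc1 (1.93-fold) and Trp53inp1 (1.58-fold) fell, and of 31 translocation genes Spcs2 (1.34-fold) fell, beside 5.17% lower over all genes. These 3 calls held in 4, 8 and 6 of 16 alternatives, and all ended without marked doublets (edgeR adjusted p = 0.0887, 0.0702 and 0.0756). Sdc1 lay close to the threshold (edgeR adjusted p = 0.0485), and leaving out any 1 library with both classes, other than p21Het_2, ended its call, as did leaving out p21mTert_1 (edgeR adjusted p = 0.0615 to 0.123). Trp53inp1 lost its call without p21Het_1, p21Het_2, p21mTert_2, p21mTert_3 or p21mTert_5 (0.0514 to 0.0780), and Spcs2 without p21Het_1, p21Het_2, p21mTert_3, p21mTert_4 or p21mTert_5 (0.0509 to 0.0765). The B cell genes Cd83 (3.66-fold) and Tnfrsf13c (2.66-fold), the BAFF receptor, fell out of 13 tested. Outside the lists and chosen after their values were seen, 3 genes of class I antigen presentation were called lower in IgA: H2-K1 (log2 -1.04, edgeR adjusted p = 0.00548), B2m (-0.80, 0.00548) and Tap1 (-1.10, 0.00751). Also chosen in that way, 4 immediate early genes, which are known to be induced by tissue dissociation, were called lower: Fos (log2 -1.58, edgeR adjusted p = 0.0310), Jun (-1.64, 0.0277), Junb (-1.84, 0.00139) and Egr1 (-2.16, 0.0150). Other genes of these kinds, such as H2-D1, Tap2 and Psmb9, were not counted. So no share of either kind can be set beside the 5.17% lower over all genes, and these picked calls do not speak for either kind. The part of dissociation in the class differences was not tested. Of markers of other cells, 0 of 5 myeloid and 0 of 4 erythroid genes passed the test between IgA and IgM, with medians of -1.37 and -1.16, and of 3 epithelial genes Epcam did. T cell, endothelial, mesenchymal and plasmacytoid dendritic cell markers were too low to be tested.

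IgG cells were set apart from both other classes by Ly6c2, a lymphocyte and monocyte surface antigen. Its IgG sums were 2932 CPM in p21Het_2, 2989 in p21mTert_1, 912 in p21mTert_3 and 1857 in p21mTertCD_1, against 29.6 to 530 CPM in IgM and 85.5 to 499 CPM in IgA sums, without overlap. The difference was 6.50-fold from IgM (log2 2.70, SE 0.48, edgeR adjusted p = 0.0241) and 6.03-fold from IgA (edgeR adjusted p = 0.0349). Ly6c2 had a UMI in 89.7% of IgG, 59.8% of IgA and 44.0% of IgM cells, against 3.20% of B cells. The calls of Ly6c2 ended without p21Het_2 (edgeR adjusted p = 0.202 and 0.122). The call against IgM also ended without p21mTert_1 (edgeR adjusted p = 0.106), and that against IgA without marked doublets (0.0504), p21mTert_4 (0.0514) or p21mTertCD_1 (0.0558). Epcam was 3.70-fold higher in IgG than in IgM cells. Txndc5 was 3.24-fold lower in IgG (160 to 1282 against 1801 to 3663 CPM), the amino acid transporter subunit Slc3a2 2.81-fold lower, and the rule gene Jchain 2.90-fold lower, the last as a description. Epcam lost its call without p21Het_2 (edgeR adjusted p = 0.0524), Txndc5 without p21Het_2, p21mTert_1 or p21mTertCD_1 (0.0524 to 0.0588) and Slc3a2 without p21Het_1, p21Het_2, p21mTert_1, p21mTert_3 or p21mTert_4 (0.0582 to 0.202). The kappa V gene Igkv12-44 was called lower too, but its IgM UMIs came mostly from 1 library, with 284 in p21mTertCD_1, 87 in p21Het_2, 11 in p21mTert_3, 1 in p21mTert_1 and 0 in the other 4 sums. That call ended with DESeq2 (adjusted p = 0.997) and with no upper UMI limit (edgeR adjusted p = 0.825).

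Relative to IgA, IgG cells had more Spon1, an extracellular matrix protein (45.6 to 177 against 0 to 10.7 CPM, 18.5-fold, edgeR adjusted p = 0.0118). A UMI of it was found in 67.2% of IgG, 20.4% of IgM and 5.43% of IgA cells. Oosp1 (8.44-fold), the oxysterol receptor Gpr183 (7.04-fold), Fcrla (4.90-fold), Inpp4b (4.26-fold) and Grn (3.55-fold) were also higher in IgG, as was Cxcr4 (3.21-fold). The desaturase Scd1 was called 3.69-fold higher in IgG, but at 698 CPM in the IgG sum of p21Het_2 and 61.9 to 70.7 in the other 3. Without marked doublets its log2 difference IgA minus IgG was -0.54 (edgeR adjusted p = 0.510). IgA cells had more Lztfl1 (5.91-fold), Ola1 (4.00-fold), Klhdc2 (3.94-fold), the common cytokine receptor chain Il2rg (3.31-fold), Tmsb10 (3.03-fold), Glipr1 (2.88-fold) and Txndc5 (2.72-fold). Tnfrsf17, which the rule used, was 5.72-fold higher in IgA, as a description. The IgG contrasts rest on p21Het_2 to a large part: without it 0 genes were called between IgG and IgM and 2 between IgA and IgG, and of the genes named for IgA against IgG only Oosp1 stayed called (edgeR adjusted p = 0.0759 to 0.288 for the others, Tnfrsf17 aside and Scd1 not tested). Without p21mTert_3 the calls of Spon1, Oosp1, Fcrla, Ly6c2 and Txndc5 held and 12 ended (0.0501 to 0.226). With no upper UMI limit the log2 differences of Gpr183 (from -2.81 to -1.12), Lztfl1 (from 2.56 to 1.49) and Ola1 (from 2.00 to 1.30) were smaller and not called, and that of Spon1 (from -4.21 to -5.08) was larger. Over all alternatives the least stable were Ola1 and Scd1, called in 5 of 16 and 5 of 15, Klhdc2 in 6, Gpr183 and Glipr1 in 7, Inpp4b in 8 and Lztfl1 in 9 of 16. Those 7 also lost their calls without marked doublets, as did Ly6c2, Tmsb10, Grn and Txndc5 (0.0504 to 0.0825, Scd1 aside), and without several other libraries, such as Klhdc2 without p21mTert_1 (0.129). Grn, Il2rg and Tmsb10 were called in 10, Txndc5 in 11 and Cxcr4 in 12 of 16.

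Between genotypes no gene of the plasma cells passed the test. The edgeR quasi-likelihood test over 4542 genes in the 10 replicated libraries called 0 genes higher (0%) and 0 lower (0%) in each of the 3 contrasts. At an unadjusted p under 0.05 there were 229 genes (5.04% of those tested) for p21mTert minus p21Het and 276 (6.08%) for p21mTert minus p21mTertCD. For p21mTertCD minus p21Het there were 116 (2.55%). Chance alone would put a share of about 0.05 of the genes under that threshold. The lowest edgeR adjusted p was 0.827, 0.619 and 1. DESeq2 called 2, 4 and 1 genes. They were Igkv16-104 and Gm42031 in the first contrast, Gm42031, Tmsb10, Pycard and Anxa2 in the second, and Igkv16-104 in the third. Igkv16-104 had log2 differences of 23.7 and 23.8, and was the assigned light chain V gene of 9 cells in 3 libraries. Class was not a term of these fits, and the mean IgA share was 31.7% in p21mTert and 11.4% in p21mTertCD. Pycard and Anxa2 were called higher in IgA than in IgM cells, and Tmsb10 than in IgG cells. The part of class mix was not tested. None of 18 plasma identity genes was called in any contrast, with median log2 differences of -0.22, -0.28 and 0.17 beside -0.00, 0.01 and -0.00 over all genes. None of 28 unfolded protein response genes (medians 0.04, -0.06 and 0.05) or 31 translocation genes (0.01, 0.03 and 0.01) was called. Of 14 homing genes, 0 were called (medians 0.22, 0.68 and -0.09).

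Cdkn1a, the gene that carries the engineered alleles (chr17:29090976-29100727, plus strand), was sparse, with 79 UMIs in 40 plasma cells. Its level was 64.2 CPM in WT, 41.0, 28.1 and 59.3 in the p21Het libraries, 0, 5.29, 17.7, 11.7 and 0 in the p21mTert libraries, and 6.11 and 0 in the p21mTertCD libraries. These levels rest on few UMIs. The p21Het libraries held 5, 30 and 10, the p21mTert libraries 0, 2, 17, 3 and 0, and the p21mTertCD libraries 3 and 0. With no upper UMI limit the counts were 46, 80 and 14, then 2, 11, 31, 5 and 0, and then 10 and 13. Within the limit, all p21Het levels lay above all p21mTert and p21mTertCD levels. The log2 difference was -1.95 (SE 0.71) for p21mTert minus p21Het, with an unadjusted p of 0.0172 and an edgeR adjusted p of 0.949, and -3.31 (SE 1.08) for p21mTertCD minus p21Het, with an unadjusted p of 0.00928 and an edgeR adjusted p of 1. The labels do not say which part of Cdkn1a the alleles change, so these 3′ counts check no label. In B cells, taken over all libraries, Cdkn1a lay between 19.2 and 39.8 CPM. Tert (chr13:73626911-73649843, plus strand) had 15 UMIs in 15 plasma cells, which allows no comparison. WT_1 held 0 of them, the p21Het libraries 0, 5 and 0, the p21mTert libraries 1, 1, 3, 2 and 0, and the p21mTertCD libraries 0 and 3.

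The V genes of the antibodies differed between cells, with a few combinations shared across libraries. A heavy chain V gene could be assigned to 356 cells, a light chain V gene to 293 and both to 239, which made 158 distinct pairs, 128 of them seen in 1 cell. Ighv1-53 led with 43 cells (12.1%) in 8 libraries, 39 of them IgM. Ighv1-53 with Igkv3-2 occurred in 14 cells of 6 libraries, Ighv9-3 with Igkv5-39 in 11 cells of 4 libraries, all IgM, and Ighv11-2 with Igkv14-126 in 6 cells of 3 libraries. Ighv1-50 with Igkv4-70 occurred in 8 IgM cells, all of p21Het_2. In all 21 pairs were found in more than one library. They covered 85 of 239 cells with a pair: 74 of 169 IgM cells with a pair (43.8%), 7 of 44 IgA cells (15.9%) and 4 of 26 IgG cells (15.4%). A class with more cells has more chances of a pair in another library, so these shares are not compared. Reads from the 3′ end do not span the V-D-J junction and V genes are close in sequence, so a shared pair is not a clone.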

How the data were processed

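Each library's deposited matrix holds raw counts of UMIs per gene and barcode, made with Cell Ranger from reads on mm10 per the labels' protocols, and the filters and scran normalization described there are not in them. No version is given, since protocol and file headers differ. The limits on UMIs and mitochondrial share, the rule for plasma cells, B cells (Jchain under 20) and CPM were computed here with Python 3.11.15, numpy 2.4.6, scipy 1.17.1 and pandas 2.3.3. Immunoglobulin genes and Jchain were given as a share of all UMIs. Doublets were marked by Scrublet score in scanpy 1.11.5, up to an assumed rate of 0.8% per 1000 barcodes. They were kept, with an alternative without them. Sums per library (10 or more plasma cells, filterByExpr, TMM, term for group) and per library and class (5 or more cells, term for library, without heavy chain constant genes) were tested with edgeR 4.0.16 in R 4.3.3, called at an adjusted p under 0.05 (Benjamini-Hochberg over all genes tested). SE is the log2 difference over the root of F. WT has 1 library and entered no test between genotypes. On simulated data 200 genes were changed 4-fold. They were drawn only from genes above a minimum mean of UMIs per sum, so sparse genes such as Cdkn1a are not covered. In the genotype contrasts, in the order given, 90.5%, 93% and 84% were recovered, with 3, 13 and 8 unchanged genes called. In the class contrasts IgA minus IgM, IgG minus IgM and IgA minus IgG, 99.5%, 95.5% and 94.5% were recovered, with 6, 15 and 8 unchanged genes called.

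The members and gene lists were chosen with earlier results of these data known. Genes named are the rule and constant genes, Cdkn1a and Tert, the 6 list members of highest mean, called list members and, per class contrast and direction, up to 8 called genes of largest difference with a mean of 50 CPM or more and 1 sign in all libraries with both classes. Others are marked as chosen later or belong to descriptions. Alternatives were no filter, DESeq2 1.42.0, other cell minimums, class limits and scalings, no immunoglobulin genes, the later deposit only, a term for deposit, a replicate block, leaving out marked doublets or each library and, added after seeing the data, no upper UMI limit in the fits. Positions are from GENCODE M21, and promoters from RefSeq.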

Additional observations from a re-analysis of the deposited data

Results flagged for a closer look

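Each measure of the 5 p21mTert libraries was examined for 1 library far from the other 4, with the gap to the nearest library compared with the range. Of 49 measures, 5 had such a library, and chance gives about 1 in 20. The plasma cell share of p21mTert_3 was 1.33% beside 0.254% to 0.450% in the others. The IgG share of p21mTert_1 was 42.9% beside 0% to 7.14%. The other 3 were all in p21mTert_5, the library of 12 plasma cells of which 11 were marked as doublets. Tnfrsf17 was at 921 CPM beside 227 to 352, a description since the cells were chosen by this gene. Sec61g was at 2208 CPM beside 1466 to 1658, and Itgb7 at 388 CPM beside 52.1 to 141. The part of doublets in these values was not tested.

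Barcodes over the upper UMI limit stayed out of all comparisons except as an alternative. Of the 3139 barcodes over that limit, 8.92% met the other conditions of the plasma cell rule, with 3.64% to 18.3% by library.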

How the results depend on the processing

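The class differences of Ccr10, Vpreb3, Pycard, Anxa2, Il10, Lag3 and Cxcr4 between IgA and IgM kept direction and call in all 16 alternatives, and 1 of 58 named differences turned: Scd1, IgA minus IgG, was 0.42 with no upper UMI limit. That setting also moved Ggh (-1.63), Oosp1 (-1.60) and Vpreb3 (3.83) for IgA minus IgM, Il10 (-3.47) for IgG minus IgM, and Fcrla (-1.66) and Oosp1 (-2.35) for IgA minus IgG by over 1.5 times, with their calls kept. It ended the calls of Cd44, Cd48, Cd9, Sdc1, Trp53inp1, Spcs2 and Herpud1 for IgA minus IgM (edgeR adjusted p = 0.202 to 0.615) and of Slc3a2 for IgG minus IgM (-0.87, 0.530). With sums of 10 or more cells 20 of the 58 stayed called, without marked doublets 39, with no upper UMI limit 43, without p21Het_2 29 of 56, and without p21mTert_3 32. Called genes for IgA minus IgM were 432 with no filter, 90 with sums of 10 or more cells and 157 without marked doublets. For IgG minus IgM they were 124 with no filter, and 17 each with DESeq2, sums of 3 or more cells or no upper UMI limit; without immunoglobulin genes 5 of 12 were higher. For IgA minus IgG they were 153 with no filter, 86 with DESeq2, 6 with sums of 10 or more cells and 14 without marked doublets. Leaving out 1 library gave 133 to 245, 0 to 11 and 2 to 37, the lowest without p21mTert_3, p21Het_2 and p21Het_2. Other libraries that moved a count by over 1.5 times were p21mTert_2 (165) and p21mTert_4 (158) for IgA minus IgM, p21mTert_1 and p21mTert_3 (5 each) for IgG minus IgM, and p21mTert_2 (26), p21mTert_3 (10), p21mTert_4 (20) and p21mTertCD_1 (18) for IgA minus IgG. Fewer sums then entered, and the cause was not tested further.

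Genotype calls (p21mTert minus p21Het, p21mTert minus p21mTertCD, p21mTertCD minus p21Het) were 167, 156 and 115 with no filter, 2, 4 and 1 with DESeq2, and 21, 2 and 13 over libraries of 20 or more plasma cells, where p21Het keeps only p21Het_2, so that the 21 and 13 set 1 library, assumed to vary like the others, against a group. They were 0, 2 and 1 with the 2 groups only, 0, 2 and 0 without immunoglobulin genes or in the later deposit, 1, 0 and 0 with no upper UMI limit, and 0 with a term for deposit, library size alone or no marked doublets. Library size alone moved the median over all genes to 0.10, 0.31 and -0.20. Leaving out 1 library gave 0 to 1, 0 to 2 and 0 to 1, with calls without p21Het_1, p21mTertCD_1 or p21mTertCD_2. Gm42031 recurred among those for p21mTert minus p21mTertCD. The cause was not tested.

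Of 152 alternative exact permutation tests of shares, 83 could not reach p = 0.05 and say nothing on this; of the 69 that could, 0 did (lowest p 0.0952, plasma cells per 100 B cells, p21mTert minus p21mTertCD). The plasma cell share turned for p21mTert minus p21Het on the logit scale (0.107) and with the replicate block (0.0258), and for p21mTertCD minus p21Het in the later deposit (-0.0340). For p21mTert minus p21Het the IgA share turned with a class limit of 90% (-1.56), no upper UMI limit (-4.84) and no marked doublets (-6.81), the IgM share in the later deposit (-6.30), and the IgG share with no upper limit (1.86) and no marked doublets (2.84). IgG for p21mTert minus p21mTertCD turned in the later deposit (-2.36). Leaving out 1 library, the plasma cell share ranged over -0.265 to 0.329, -0.423 to -0.153 and -0.0340 to 0.559, IgA over -6.55 to 11.2, 8.92 to 31.7 and -31.6 to -8.81, IgM over -8.96 to 11.8, -40.4 to -11.3 and 11.6 to 40.6, and IgG over -8.25 to 7.34, -2.36 to 8.69 and -11.7 to 1.79. The cause was not tested. Numbers shared by p21mTert and p21Het (replicates 2 and 3) name 2 pairs only; replicate differences correlated with r = 0.314 across 646 genes, and the fit with the replicate block called 0 genes. With 12 to 119 plasma cells per library, genes of few UMIs were not measurable.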

Other observations

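Among IgA sums, levels of Pycard were 2437, 2404, 2234 and 3373 CPM in p21mTert_2 to p21mTert_5, and 691, 570 and 412 CPM in p21Het_1, p21Het_2 and p21mTertCD_1. The p21mTert sums lay above the others, and that of p21mTert_5 drops out without marked doublets, which were 11 of its 12 plasma cells. The split was not particular to Pycard: IgA sums of the p21mTert libraries were also above the others for Crip1 (3447 to 6119 against 914 to 2605 CPM), Anxa2 (347 to 1026 against 49.4 to 321), Itga4 (572 to 1729 against 283 to 370) and Atp1b1 (213 to 476 against 70.7 to 111), among other genes. These values were noticed after the data were seen, and no test was run on these IgA sums. The genes named are among those called higher in IgA than in IgM cells. The share of all tested genes that split this way was not counted, so no pattern of p21mTert is read from them. Over plasma cells of all classes, DESeq2 called Pycard (log2 1.87, DESeq2 adjusted p = 0.0299) and Anxa2 (3.88, 0.0299) higher in p21mTert than in p21mTertCD. Against p21Het it called neither, and edgeR called neither in its main fit. Class was not a term of these fits. In IgM sums of the same genotypes, Pycard lay between 118 and 373 CPM.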
